A study of Homo sapiens with 6 samples.

Results

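PML nuclear body components were examined in HCT116, an established human colorectal carcinoma line, after siRNA against NONO. The 6 genes were chosen by symbol, namely PML, SP100, SP110, SP140L, DAXX and ATRX, and each was found once among the 62492 genes listed for every library. All 6 passed the filter on low counts, with which 17000 genes were tested. The control cells (siControl) carry the genotype label WT and received a control duplex, and the siNONO cells are labelled as a NONO knockdown. Both received siRNA at 20 nM with Lipofectamine RNAiMAX. A single siNONO duplex was used, so loss of NONO and other effects of that duplex cannot be told apart. Each group has 3 polyA RNA libraries, labelled Set 1 to Set 3, and the Set was taken as a block. The estimated counts summed to 32659002, 27491389 and 21765393 in siControl of Sets 1, 2 and 3, and to 28715263, 28260060 and 27946591 in siNONO.

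PML nuclear bodies are dots in the nucleus whose shell is built by PML, a TRIM family protein that is modified by the small ubiquitin-like modifier SUMO. SP100 is a permanent resident of the bodies, SP110, SP140 and SP140L are its relatives with chromatin-reading domains, and DAXX and ATRX form a chaperone and remodelling pair that deposits histone H3.3 in heterochromatin and visits the bodies. PML, SP100 and SP110 are known interferon-stimulated genes, and the bodies are known for restricting incoming viral genomes.

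The SP100 family lies in tandem on chromosome 2 of GRCh37. In the GENCODE annotation SP110 is at chr2:231029902-231090444 on the minus strand, SP140 at chr2:231067826-231177930, SP140L at chr2:231191899-231268447 and SP100 at chr2:231280657-231410321, these last on the plus strand. The 4 genes together span 380.4 kb. PML lies apart from them at chr15:74287014-74340168 on the plus strand, DAXX at chr6:33286335-33290793 and ATRX at chrX:76760358-77041719, both on the minus strand. RefSeq promoter windows, from 250 bases before a start site to 50 after it, were held for the family only (SP110 and SP100 with 2 starts each, SP140 and SP140L with 1 each). The stretches below come from these windows, each placed in GRCh37 by its only exact match on the chromosome. They are shown because near-identical purine-rich elements stand at or near the starts of family members whose fold changes were of different sizes. Capitals mark the element, a run built around AA, any 2 bases and GAAA, which is the core that interferon regulatory factors are known to bind. The first stretch precedes the downstream SP110 start (chr2:231084714-231084772, plus strand), the second precedes the upstream SP110 start and crosses the SP140 start (chr2:231090419-231090477, minus strand), the third precedes SP140L (chr2:231191799-231191857, minus strand) and the fourth precedes the upstream SP100 start (chr2:231280830-231280881, minus strand).
SP110, downstream start: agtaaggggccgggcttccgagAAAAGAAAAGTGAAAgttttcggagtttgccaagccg
SP110, upstream start, and SP140: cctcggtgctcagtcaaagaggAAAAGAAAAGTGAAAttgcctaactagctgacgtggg
SP140L: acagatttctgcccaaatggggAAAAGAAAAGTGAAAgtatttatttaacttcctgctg
SP100: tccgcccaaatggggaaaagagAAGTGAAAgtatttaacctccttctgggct

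The element of SP110 and SP140L is the same letter for letter. Together with the G before it, it forms a run of 16 bases, GAAAAGAAAAGTGAAA, that occurred on either strand in 4 of 35116 RefSeq promoter windows (0.0114%). These 4 were both windows of SP110, that of SP140 and that of SP140L. As the SP140 start lies 100 bp from the upstream SP110 start in the opposite direction, the windows of these starts share 1 copy. The run was taken as the longest that the SP140L window and both SP110 windows share, so its presence in them was fixed beforehand. The aligned stretch before SP100 reads GAAAAGAGAAGTGAAA and differs from the run by the single substitution A8G, counted from 1 at the 5′ end of the run. The SP140L window and the upstream SP100 window were identical at 77.1% of the positions of their alignment, gaps included, and other pairs, each read along its own gene's strand, were at most 56.7%. The SP140 and upstream SP110 windows overlap on opposite strands and share the same 199 bases, which that reading does not count. The element lies 36 bases before the downstream SP110 start, 89 before the upstream SP110 start, 72 before SP140L and 56 before SP100, and it crosses the SP140 start. The interferon-stimulated response element core (GAAA, any 2 bases, GAAA) was in none of the 6 family windows and in 3.57% of all windows on either strand. The gamma-activated site (TTC, any 3 bases, GAA), which reads the same on both strands, was in 1 of 6, the downstream SP110 window, and in 7.66% of all. The core of AA, any 2 bases and GAAA was searched after the sequences were seen. It was in 5 of 6 family windows and 22.8% of all, while GAAA, any 3 bases and GAAA, which overlaps it in these elements, was in 4 of 6 and 2.86% of all. These matches describe letters only, and no binding was measured.

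NONO, the targeted gene, was looked at first. It had 496, 495 and 516 CPM (estimated counts scaled to a library size adjusted by TMM) in siControl of Sets 1, 2 and 3, and 89.5, 95.5 and 100.4 CPM in siNONO. All siNONO libraries thus lay far below all siControl libraries, with a log2 fold change of -2.40 ± 0.0337 (standard error, SE). Its adjusted p was 2.47e-13. Unless another tool is named, adjusted p-values come from the quasi-likelihood F-test of edgeR and are adjusted by Benjamini-Hochberg across the 17000 genes.

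Of the 6 components, 5 were called higher in siNONO and DAXX did not pass the test. The call of ATRX did not hold without the Set as a block, when 4 were called. Nor did it hold in TPM by limma on log2(TPM + 1). Its log2 fold change there was -0.05, beside a median of -0.07 over all genes tested. Across all genes tested, 23.2% were called higher, 23.4% lower and 46.6% in either direction at an adjusted p of at most 0.05. The fold was 5.15 for SP110, 3.19 for SP100, 2.15 for PML, 1.26 for SP140L and 1.14 for ATRX. SP110, SP100 and PML ranked 43, 94 and 248 by log2 fold change among the 17000, counted from the highest. In these bulk libraries, more cells expressing a gene and more RNA per cell cannot be told apart.

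PML, the scaffold without which the bodies do not form, had 30.7, 31.7 and 35.0 CPM in siControl of Sets 1, 2 and 3. In siNONO it had 68.3, 65.1 and 75.4 CPM. Every siNONO library was above every siControl library, and Set 3 was the highest within each group. The mean rose from 32.5 ± 2.22 to 69.6 ± 5.28 CPM (SD, n = 3), a log2 fold change of 1.10 ± 0.0446 (SE, 95% interval 1.00 to 1.20, adjusted p = 1.54e-09 by edgeR). Within the Sets the log2 ratio was 1.15, 1.04 and 1.11.

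SP110, a nuclear body protein best known for its part in resistance to intracellular pathogens, showed the largest change of the 6. It had 9.86, 11.8 and 11.5 CPM in siControl of Sets 1, 2 and 3, the lowest level of any component there in CPM. In siNONO it had 56.3, 55.0 and 58.8 CPM, with no overlap between the groups. The log2 fold change was 2.36 ± 0.0633 (SE, 95% interval 2.23 to 2.5, adjusted p = 4.27e-11 by edgeR), and the Sets gave 2.51, 2.21 and 2.35.

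SP100, which binds DNA and HP1 proteins within the bodies, had 37.6, 38.6 and 36.8 CPM in siControl and 124, 114 and 122 CPM in siNONO of Sets 1, 2 and 3. The siControl libraries stood close together and all siNONO libraries far above them. The log2 fold change was 1.67 ± 0.0433 (SE, 95% interval 1.58 to 1.77, adjusted p = 3.29e-11 by edgeR), with 1.72, 1.56 and 1.73 in the Sets. For SP110, SP100 and PML alike, Set 2 gave the smallest ratio.

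SP140L, the family member between SP140 and SP100, moved much less. It had 33.7, 32.1 and 30.5 CPM in siControl and 40.6, 40.5 and 40.7 CPM in siNONO. The groups did not overlap, and the spread came almost wholly from siControl. The log2 fold change was 0.34 ± 0.0501 (SE, 95% interval 0.23 to 0.44, adjusted p = 0.000133 by edgeR), and the Sets gave 0.27, 0.33 and 0.41. Its interval lies wholly below those of SP110 and SP100.

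SP140, the remaining relative, is known mainly from blood cells and was barely detected. It had 11, 11 and 8 rounded counts in siControl of Sets 1, 2 and 3 and 4, 7 and 22 in siNONO, so the groups overlapped. The log2 fold change was -0.08 ± 0.492 (SE, 95% interval -1.15 to 0.99, adjusted p = 0.91 by edgeR). With 1 library left out it ran from -0.91 without siNONO of Set 3 to 0.32 without siControl of Set 1, none called, so no direction can be given for it. The estimated counts of PML, SP100, SP110, SP140L and SP140 were not whole in at least 1 library, since RSEM shares a read that maps to several transcripts among genes. How reads of the related family members were divided is therefore uncertain, and whether the strand was used in counting is not given in the sources used here. This matters most where SP110 and SP140 overlap on opposite strands.

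DAXX, the H3.3 chaperone, had 85.4, 88.4 and 92.9 CPM in siControl and 86.5, 87.6 and 89.4 CPM in siNONO of Sets 1, 2 and 3. All siNONO values fell within the siControl range. The log2 fold change was -0.02 ± 0.0353 (SE, 95% interval -0.09 to 0.06, adjusted p = 0.73 by edgeR), and the Sets gave 0.02, -0.01 and -0.06.

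ATRX, its remodelling partner, had 154, 149 and 137 CPM in siControl and 182, 172 and 150 CPM in siNONO. The groups overlapped, as siNONO of Set 3 was below siControl of Set 1, but siNONO was higher in each Set by 0.24, 0.21 and 0.13 on the log2 scale. With the Set as a block the log2 fold change was 0.19 ± 0.0329 (SE, 95% interval 0.12 to 0.27, adjusted p = 0.000359 by edgeR). Without the block it was 0.19 with an adjusted p of 0.0501 by edgeR. TPM is the deposited transcript abundance, which corrects for the length of the isoforms found. In TPM, ATRX had a log2 fold change of -0.05 (adjusted p = 0.68 by limma on log2(TPM + 1)). The median of all genes tested was -0.07 in that fit, against -0.0048 by edgeR. ATRX was thus not called in TPM, and its value moved further between the 2 fits than the median of all genes did. The abundance-weighted length of ATRX, which enters its TPM, was 4867 ± 480 bases in siControl and 5366 ± 430 in siNONO (SD, n = 3). These lengths overlapped between the groups, and their part in the change of sign was not tested.

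**Figure D1:**
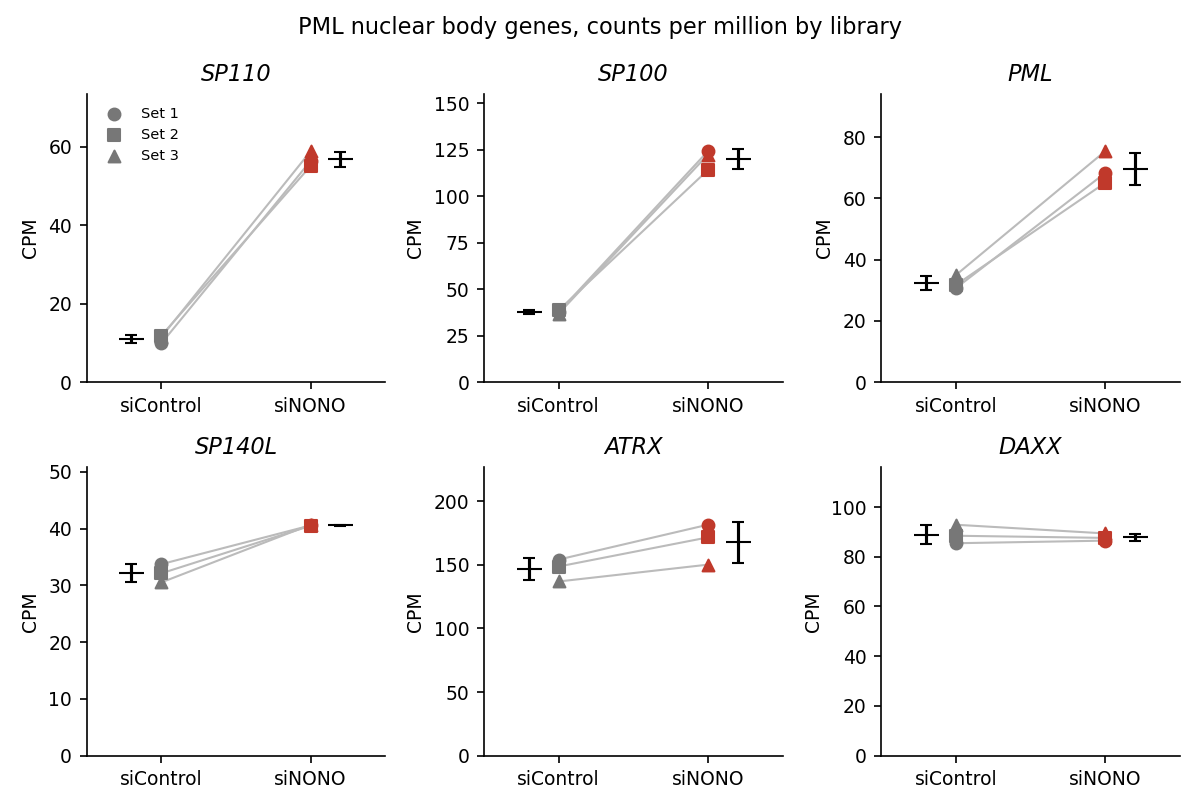
CPM (linear axis from 0) of each component in siControl (grey) and siNONO (red), with symbols for the Sets, grey lines joining libraries of a Set, and black bars for the mean ± SD of 3 libraries. The groups part fully for SP110, SP100, PML and SP140L, while those of ATRX and DAXX overlap.

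The groups did not overlap for 4 of the 6 components, all higher in siNONO. Over all genes tested, 23.9% were higher and 24.0% lower without overlap, so such a pattern was common in these libraries. What set SP110, SP100 and PML apart from most genes was the size of the change, as log2 fold changes of all genes tested ran from -0.66 at the 5th percentile to 0.65 at the 95th. SP140L, ATRX and DAXX lay inside that range. The order of the 6 by log2 fold change was SP110, SP100, PML, SP140L, ATRX and DAXX, and the 95% intervals of neighbours in that order were separate except for SP140L and ATRX.

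**Figure D2:**
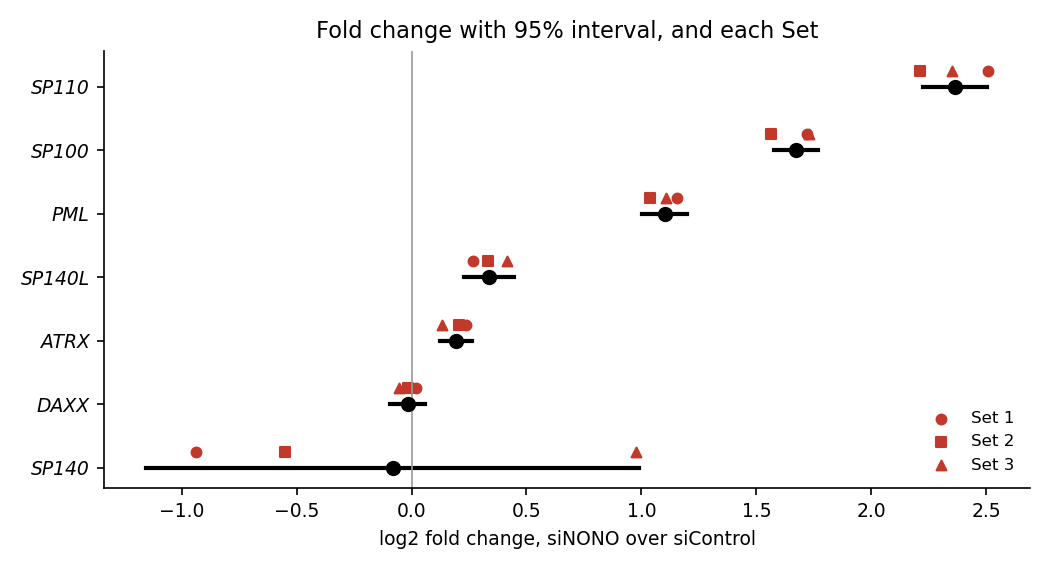
Log2 fold change of the 6 components and of SP140 with 95% intervals (black), and the log2 ratio within each Set (red symbols). The intervals of SP110, SP100 and PML lie at 1.00 or above, that of DAXX spans 0, and that of SP140 runs from -1.15 to 0.99.

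Levels between genes were compared in TPM, which is scaled per length. In siControl the order was DAXX (58.8 ± 0.995 TPM, SD, n = 3), ATRX (44.5 ± 3.27), SP100 (27.9 ± 1.65), SP140L (25.5 ± 1.26), PML (14.1 ± 0.977) and SP110 (10.7 ± 1.27). The chromatin pair thus led, and the libraries of SP100 and SP140L overlapped. In siNONO the order was SP100 (75.7 ± 5.16 TPM), DAXX (58.2 ± 2.41), SP110 (47.4 ± 2.03), ATRX (43.0 ± 2.73), SP140L (31.1 ± 1.08) and PML (30.3 ± 2.88). SP100 thus passed DAXX and ATRX, and SP110 went from the lowest place to a level whose libraries overlapped those of ATRX. SP140L and PML overlapped as well. The summed TPM of the 6 rose from 179, 177 and 189 in siControl to 290, 283 and 284 in siNONO of Sets 1, 2 and 3. PML, SP100 and SP110 made up 27.2%, 30.4% and 29.5% of that sum in siControl and 53.6%, 51.7% and 55.8% in siNONO.

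The proportions among the transcripts changed accordingly. The TPM ratio of SP100 to PML was 1.98 ± 0.120 in siControl and 2.51 ± 0.283 in siNONO (SD, n = 3), with no overlap. That of SP110 to SP100 went from 0.381 ± 0.0271 to 0.629 ± 0.0580, and that of SP140L to SP100 from 0.918 ± 0.0967 to 0.412 ± 0.0289. The ratio of PML to DAXX was 0.240 ± 0.0130 and 0.522 ± 0.0726. That of DAXX to ATRX overlapped between the groups, at 1.27 to 1.42 in siControl and 1.3 to 1.39 in siNONO.

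RSEM also gives a gene length that is averaged over isoforms by their abundance, so it moves when the isoform mix moves. For PML, which is known for many isoforms that differ at the C terminus, it was 3473, 3407 and 3465 bases in siControl and 3380, 3181 and 3185 in siNONO of Sets 1, 2 and 3. All siNONO values were lower. For SP100, also known for several isoforms, it was 2263, 2043 and 2022 bases in siControl and 2263, 2297 and 2360 in siNONO. Those of Set 1 were practically equal, and the others rose. For SP110 it was 1714, 1703 and 1583 bases in siControl and 1865, 1719 and 1778 in siNONO, with a narrow gap between the groups. SP140L, DAXX and ATRX overlapped, although for ATRX the mean went from 4867 ± 480 to 5366 ± 430 bases. Of all genes tested, 5.46% were longer and 5.83% shorter in siNONO without overlap. These lengths are given as a description, with no test. The isoforms themselves were not analysed here.

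The genes beside the components were chosen by position after values had been seen. Of 16 protein-coding neighbours, 12 were tested, and 3 were higher, 1 lower and 8 neither, beside 23.2% higher and 23.4% lower over all genes tested. Beside the SP100 family, FBXO36 and SLC16A14 before it had log2 fold changes of 0.02 ± 0.0970 and -0.07 ± 0.0656 (SE), neither called. After it, CAB39 fell (-0.21 ± 0.0363) and ITM2C rose (0.18 ± 0.0309). These 4 neighbours of the family lay within 0.21 of 0 on the log2 scale, against 2.36 for SP110 and 1.67 for SP100. Beside PML, LOXL1 rose (0.36 ± 0.0804), while STOML1 (-0.24 ± 0.146) and GOLGA6A (-0.35 ± 0.417) were not called. Beside ATRX, MAGT1 rose by 0.17 ± 0.0352, close to the 0.19 of ATRX, and MAGEE1 (0.13 ± 0.142) and COX7B (0.10 ± 0.0461) were not called. Beside DAXX, ZBTB22 was at -0.00272 ± 0.0763, not called, and TAPBP, which helps to load peptides on MHC class I, stood at -0.05 ± 0.0312, not called.

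**Figure D3:**
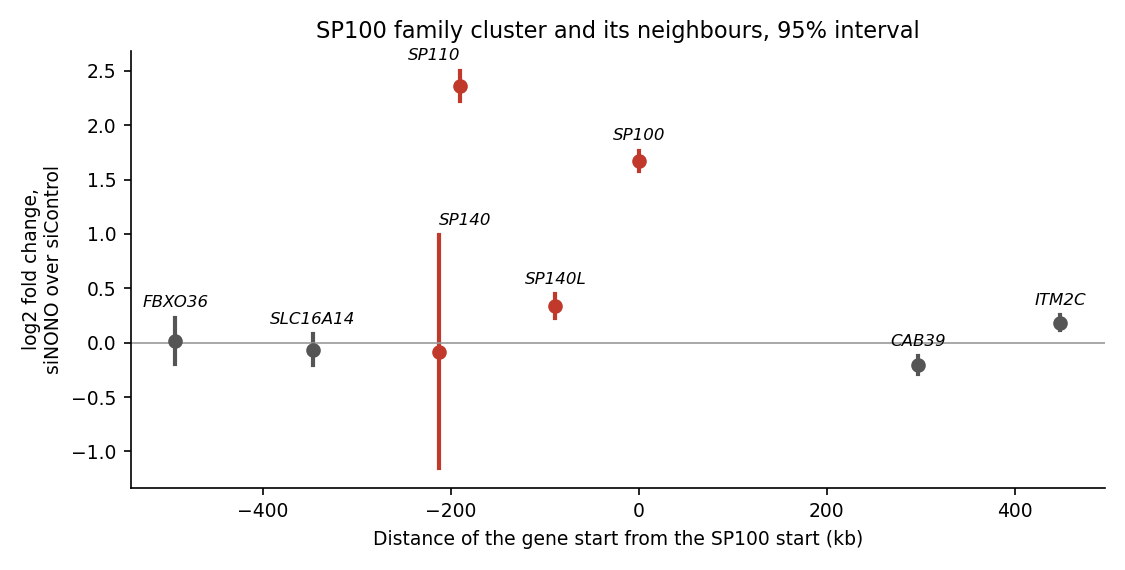
Log2 fold change (points) with 95% intervals (lines) for the SP100 family (red) and the nearest tested neighbours (grey), by the distance of each annotated gene start from that of SP100 in kb. SP110 stands at 2.36 and SP100 at 1.67, while the flanking genes stay near 0 and SP140 has the widest interval.

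Other genes that serve the bodies were called in both directions or lower. SUMO pathway genes, which modify PML and SP100, were all tested, and of 21, 6 rose, 8 fell and 7 passed in neither direction, with a median log2 fold change of -0.06 beside -0.0048 for all genes tested. Over all genes tested, to be read beside the counts of this and the next lists, 23.2% were called higher and 23.4% lower. The E3 ubiquitin ligase RNF4, which recognises SUMO chains on PML, rose from 62.8 ± 4.35 to 100.5 ± 0.406 CPM (SD, n = 3; log2 fold change 0.68). The SUMO ligase PIAS3 rose by 0.62 and the protease SENP3 by 0.47 on the same scale. SUMO2 itself fell from 338 ± 15.8 to 179 ± 14.6 CPM (log2 fold change -0.92), and the activating enzyme subunit UBA2 (-0.54) and the SUMO chain protease SENP7 (-0.48) fell too.

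Of 15 genes for H3.3 deposition and heterochromatin, which include the HIRA complex, a route of H3.3 deposition separate from DAXX and ATRX, none rose, 11 fell and 4 passed in neither direction, with a median of -0.22. UBN1, a subunit of the HIRA chaperone complex, fell from 102 ± 3.19 to 45.1 ± 0.374 CPM (log2 fold change -1.18). The histone chaperones ASF1B (-0.79) and DEK (-0.42) fell as well. The highest values were those of UBN2 at 0.07 and the H3K9 methyltransferase SETDB1 at 0.05, neither called. By edgeR 0 were higher also at an unadjusted p under 0.05, and DESeq2 and limma called 0 higher, but UBN2 was called at 0.18 without either library of Set 3. Of 15 client proteins, which visit the bodies, 5 rose, 8 fell and 2 passed in neither direction, with a median of -0.15. By DESeq2 3 were called higher and 7 lower, and by limma on log2(TPM + 1) 2 higher and 9 lower. The exonuclease ISG20 (0.53) and NBN of the MRE11 complex (0.33) were among those that rose. BLM (-0.65) and RMI1 (-0.64), which act together in dissolving recombination intermediates, and TOPBP1 (-0.54) of the replication checkpoint fell.

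Scaffolds of other nuclear bodies gave 4 higher, 4 lower and 2 in neither direction of 10, with a median of 0.02. NEAT1, the gene of the RNA scaffold of paraspeckles, rose from 292 ± 27.9 to 633 ± 9.97 CPM (SD, n = 3; log2 fold change 1.12). Its isoforms were not told apart here, among them NEAT1_2, which the study names as the scaffold. PSPC1 (0.65) and SFPQ (0.22), the partners of NONO in paraspeckles, rose too. The lowest were the speckle scaffold SRRM2 (-0.29), nucleolar NCL (-0.20) and NPAT of the histone locus body (-0.20), which fell.

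Of 7 transcription factors activated by interferon, IRF8 was not tested, 5 rose and IRF3 (0.03) passed in neither direction, with a median log2 fold change of 1.48. Among them IRF7 rose by 3.14, IRF9 by 2.05 and IRF1 by 0.31. They moved in the same libraries as PML, SP100 and SP110, and their part in those changes was not tested.

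The genes whose profiles over the 6 libraries were nearest to each component, by Euclidean distance between centred log2 CPM among 12821 candidates, differed by component. They were MYD88, TAP1 and ADAM19 for PML, at distances of 0.0754, 0.104 and 0.154. For SP100 they were PARP12 (0.183), EIF2AK2 (0.209) and SHFL (0.210), and for SP110 they were DDX60 (0.220), HERC5 (0.268) and USP18 (0.286). SP140L was nearest to PIP4P2, DUSP16 and BACE2, ATRX to ALCAM, ATP7A and ZNF37BP, and DAXX to RBM33, CLTA and KIF1C. Distances grow with the size of the change, so they compare genes for 1 component and not components with each other.

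The labelled cell type was checked against its markers. The 8 colorectal epithelial markers summed to 3016, 2881 and 2907 TPM in siControl and 2814, 2722 and 3013 TPM in siNONO, with KRT8 the most abundant at 1050 to 1281 TPM and VIL1 nearly absent at 0.01 to 0.17 TPM. EPCAM, KRT19 and KRT20 were called higher in siNONO and none of this list lower. Of 10 markers of blood, stromal and endothelial cells, 9 were matched, and they summed to 18.7, 17.5 and 20.2 TPM in siControl and 19.0, 16.9 and 19.7 TPM in siNONO. Nearly all of this was COL1A1, at 16.2 to 19.0 TPM, while COL1A2 was at 0 in all libraries and the leukocyte genes PTPRC and CD3E had at most 1 count. Of these markers 3 were tested and 0 called by edgeR or limma, nor was COL1A1 by DESeq2, which gave no adjusted p for the others, and by edgeR 0 had an unadjusted p under 0.05.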

How the data were processed

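RNA sequencing was analysed for 3 siControl and 3 siNONO libraries of HCT116 cells, and the other experiments of the study were not used here. Reads had been trimmed by the authors with sickle, mapped with STAR to the GRCh37 build with GENCODE version 34 and quantified with RSEM (version 1.3.1). They deposited per gene an expected count (estimated, not normalized), the TPM, the FPKM and an abundance-weighted length. The deposited TPM values are scaled for length and library size, and the deposited FPKM values were not used.

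Expected counts were rounded to whole numbers and tested with the quasi-likelihood F-test of edgeR (version 4.0.16, legacy setting), after TMM scaling and filterByExpr. The Set was a block, and p-values were adjusted by Benjamini-Hochberg. Standard errors were derived from the F statistic. Every pair of replicates differed beyond sampling noise, and the biological coefficient of variation was 3.51%. Set numbers, given in the labels, were taken to pair libraries, since deviations from the group means over 9108 genes correlated at 0.534, 0.284 and 0.573 within the Sets, while pairings of different Sets ran from -0.521 to 0.222. Nothing in the sources says what a Set is beyond a biological replicate.

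The 6 components and the context lists were chosen with earlier results of these data known. Genes named were NONO, the components, SP140, up to 3 tested genes each way by log2 fold change in each context list (average log2 CPM of at least 1), every interferon-activated transcription factor, all markers, and the 3 nearest profiles of each component. SENP2 and the neighbouring genes are named outside this rule, after their values were seen. Positions are those of GENCODE version 44 as lifted to GRCh37, which is newer than the version used for counting, and promoter windows from RefSeq on GRCh38.p14. Of the 62492 gene identifiers, 62162 matched a symbol. A planned comparison of the family's proteins was not run, and some genes that this rule names are not reported here. Alternatives were other scalings and filters, no block, other forms of the test, DESeq2 (version 1.42.0), limma (version 3.58.1) on log2(TPM + 1) and log2(TPM + 0.1), and each library left out in turn.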

Additional observations from a re-analysis of the deposited data

How the results depend on the processing

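Under 17 alternatives, PML (log2 fold change 1.05 to 1.15), SP100 (1.41 to 1.74) and SP110 (2.06 to 2.45) were called higher in every case, and DAXX (-0.03 to 0.01) in none. With each library left out in turn the ranges were 1.07 to 1.15, 1.65 to 1.74 and 2.29 to 2.45 for PML, SP100 and SP110. They were 0.30 to 0.38 for SP140L and 0.17 to 0.23 for ATRX, and all were called. As the Set stayed a block, a library left without its partner adds nothing to the fold change. Leaving out siControl or siNONO of the same Set thus gave nearly the same fit, and such fits are not separate checks. SP140L was not called by limma on log2(TPM + 1) without a filter (0.27, adjusted p = 0.051). ATRX depended on the pairing, since without the replicate block it was 0.19 (adjusted p = 0.0501, edgeR). In limma on TPM, where its weighted length enters, ATRX was not called. It stood at -0.04717 with a pseudocount of 1, with or without the filter, and at -0.04813 with 0.1. The median of all genes tested was -0.07136 with a pseudocount of 1, -0.02338 with that and no filter, and -0.08961 with 0.1. ATRX thus lay above the median with the filter and below it without. SENP2, called higher by edgeR (0.32), was not called in limma on TPM either. It stood at -0.009905 with a pseudocount of 1, with or without the filter, and at -0.01012 with 0.1, above those medians. Without the block 4 of the 6 components were called, and 6164 of all genes.

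The number of genes called fell from 7924 to 5227 with DESeq2, to 5257 and 5250 with limma on log2(TPM + 1) and log2(TPM + 0.1), and to 2886 with limma on log2(TPM + 1) and no filter. In edgeR the count without a filter was 8116. The split of higher and lower calls was 3939 and 3985 by edgeR, and 1643 and 3614 by limma on log2(TPM + 1). The median log2 fold change of all genes tested was -0.0048 in the first fit and -0.07136 in the second. Limma on log2(TPM + 1) without a filter called 3 components, 7 SUMO pathway genes, 8 clients (1 higher and 7 lower) and 4 scaffolds, fewer than edgeR, and the cause was not tested. Among genes named, PIAS3, SENP7, SFPQ, NBN, IRF1, NPAT and ISG20 lost their call in 1 or more alternatives. Of the 6 family windows, 5 held the shorter core and 4 the element with a spacer of 3, both searched after the sequences were seen, against 0 for GAAA, any 2 bases, GAAA and 0 for its shorter form. SP140 had at most 22 counts in a library, which limits what could be detected for it.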
